A study of Mus musculus with 10 samples.

Results

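The type I interferon response genes described here are 35 interferon-stimulated genes, taken as a named list, matched by gene symbol and chosen with earlier results of these data known. Of the 35, 34 had a row in all 10 library tables, and all 34 passed the filter on low values that kept 11564 of 21938 genes. The remaining one, Mx2, has no row in these tables and was not analysed here. The libraries are RNA sequencing of tumour-associated macrophages sorted from PyMT mammary tumours of C57BL/6 mice after 5 weeks of tumour growth. PyMT cells are mammary tumour cells driven by the polyoma middle T oncogene. As control serve 3 libraries of wild-type (WT) mice with WT tumour cells. A further 4 libraries, called Mertk KO, are labelled as coming from mice without MerTK in macrophages, again with WT tumour cells. In the last 3, called Ptdss1 knockdown, the mouse was WT and the tumour cells carried the knockdown. MerTK is a receptor through which macrophages take up apoptotic cells, and Ptdss1 makes phosphatidylserine, the lipid by which such cells are recognised. The Cre driver, the deleted exons, the means of knockdown and whether libraries came from separate mice are not stated in the labels, so p-values measure only the spread between these libraries.

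Type I interferons bind the Ifnar1 and Ifnar2 receptor pair, and Jak kinases then phosphorylate Stat proteins, Stat2 among them. With Irf9, Stat2 takes part in a complex that binds interferon-stimulated response elements and switches on a broad set of genes. Their products sense viral RNA or DNA, degrade or sequester RNA, hold virions at the membrane, attach the ubiquitin-like protein Isg15, and feed back on the pathway. In tumours, macrophages both make type I interferon and respond to it.

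RefSeq promoter windows on GRCm38.p6, each of 300 bases and mostly upstream of a gene's start, were available for 26 of the 35 genes. The core of the response element, GAAA and GAAA with any 2 bases between them on either strand, was found in 15 of the 26 genes (57.7%) and in 1079 of 27025 genes with a window (3.99%). Bst2 (which encodes tetherin, a membrane protein that holds budding virions on the cell) had 2 matches that overlap each other, as did Oas1a. The Bst2 window is chr8:71537423-71537722 on the minus strand. The windows of Bst2 and of the 3 further genes of highest mean level that hold the element are shown 5′ to 3′ because Bst2 is set beside the other genes below, with each match in capitals. Trim30a (chr7:104465144-104465443, minus strand) encodes a Trim-family protein, Oas1a (chr5:120907476-120907775, minus strand) a 2-5A synthetase, and Stat2 (chr10:128270248-128270547, plus strand) the pathway's own transcription factor. In Trim30a and Stat2 the match is on the opposite strand and so reads TTTC and TTTC with 2 bases between.
Bst2: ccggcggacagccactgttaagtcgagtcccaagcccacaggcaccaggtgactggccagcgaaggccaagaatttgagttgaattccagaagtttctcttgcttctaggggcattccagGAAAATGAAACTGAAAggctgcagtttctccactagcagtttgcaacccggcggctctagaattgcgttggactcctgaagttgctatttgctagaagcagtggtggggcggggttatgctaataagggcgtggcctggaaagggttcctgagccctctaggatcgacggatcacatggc
Trim30a: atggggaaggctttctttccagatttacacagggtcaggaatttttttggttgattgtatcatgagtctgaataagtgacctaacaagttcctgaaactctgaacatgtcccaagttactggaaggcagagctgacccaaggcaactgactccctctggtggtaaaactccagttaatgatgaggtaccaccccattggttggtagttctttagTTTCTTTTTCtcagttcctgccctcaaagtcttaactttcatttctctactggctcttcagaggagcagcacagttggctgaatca
Oas1a: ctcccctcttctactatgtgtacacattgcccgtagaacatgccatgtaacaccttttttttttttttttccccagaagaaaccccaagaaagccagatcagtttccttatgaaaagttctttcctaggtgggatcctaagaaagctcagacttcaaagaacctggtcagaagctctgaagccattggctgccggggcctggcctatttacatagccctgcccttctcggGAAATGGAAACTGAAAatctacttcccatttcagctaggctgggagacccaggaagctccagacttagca
Stat2: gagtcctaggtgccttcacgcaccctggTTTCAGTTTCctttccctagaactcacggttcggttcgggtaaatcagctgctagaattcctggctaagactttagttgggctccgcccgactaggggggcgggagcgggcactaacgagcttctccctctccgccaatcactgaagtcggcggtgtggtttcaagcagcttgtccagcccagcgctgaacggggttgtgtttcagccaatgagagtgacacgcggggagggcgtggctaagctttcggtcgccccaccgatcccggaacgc

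A match of letters is a description and not a binding site. In Bst2 the matches begin at -130 and -124 from the start, in Oas1a at -20 and -14, in Trim30a at -36 and in Stat2 at -222. The other genes with a match were Isg15, Ifit1, Ifit3, Oas3, Rsad2, Ifih1, Ddx58, Eif2ak2, Ifi205, Slfn5 and Slfn8. Searched for and without one were Ifit2, Irf7, Irf9, Oasl1, Oasl2, Cmpk2, Ifi44, Herc6, Xaf1, Isg20 and Phf11d. Bst2 and Isg15, which stood on opposite sides of control in the Ptdss1 knockdown libraries, both held the element.

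Whole-library facts frame these values. Totals ran from 10292592 to 25815071 recovered reads per library. Ptdss1 knockdown replicate 1 (labelled X13) had 6995 genes with at least 10 reads, control replicate 2 had 9066, and the other libraries had 9585 to 11523. Of the widely detected genes, those that reach 10 reads in at least 7 other libraries, Ptdss1 knockdown replicate 1 missed 31.5% and control replicate 2 missed 13.1%. Macrophage markers were high in every library, at 413286 to 792495 summed normalised reads over 12 genes, and groups overlapped. Mertk itself stood at 9.64, 9.26 and 10.97 on the log2(normalised reads + 1) scale in the control libraries and at 10.63, 9.72, 9.24 and 8.95 in those labelled Mertk KO, so the gene-level value does not separate the groups. Reads are summed over the whole gene and the deleted exons are not given, so it checks neither the labels nor the deletion, and the groups are called by their labels throughout. Ptdss1 was lowered in tumour cells and cannot be checked in sorted macrophages.

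Unless another scale is named, levels are log2(normalised reads + 1) and fold changes are differences of group means on that scale, with limma's standard error (SE). On a per-length scale, as RPKM from the recovered reads, Bst2 was the highest of the 34 genes in all 10 libraries. Its mean was 491 RPKM in control, 566 in Mertk KO and 199.9 in Ptdss1 knockdown. The next highest in control were Oas1a at 70.3 RPKM, Rtp4 at 51.5, Zbp1, a sensor of Z-form nucleic acids, at 44.0, Ifi204 at 43.9 and Trim30a at 41.9. The lowest in control was Ddx58 at 1.74 RPKM. Bst2 alone made up 38.0% to 62.8% of the summed RPKM of the 34 genes in the control libraries and 55.7% to 60.3% in Mertk KO. In Ptdss1 knockdown that share was 11.6%, 36.8% and 16.95%, below every control library. The kit does not mark strand, and exons of other genes cover 13.9% of the exonic bases of Rtp4, 13.7% of Herc6 and 8.84% of Slfn5. Ifi204 and Ifi205, Ifit3, Oas1a, Slfn8, Trim30a and Phf11d have close paralogs that can share reads, which makes those levels less certain.

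Among the transcription factors, Irf7 (which drives the later wave of interferon genes) was 11.06, 10.77 and 9.63 in control, 9.29, 8.55, 9.64 and 9.31 in Mertk KO, and 12.37, 10.20 and 10.17 in Ptdss1 knockdown. Mertk KO replicate 3 was level with the lowest control, the other 3 Mertk KO libraries were below all controls, and every Ptdss1 knockdown library was above every Mertk KO library. Irf9, the DNA-binding part of the Stat complex, was 10.05, 8.84 and 9.55 in control, 9.57, 9.65, 10.11 and 9.94 in Mertk KO, and 13.21, 10.16 and 10.14 in Ptdss1 knockdown. All Ptdss1 knockdown libraries were above all others for Irf9, with replicates 2 and 3 just above the highest of the other groups. Stat2 was 8.78, 10.89 and 9.93 in control, 10.87, 9.61, 10.66 and 9.68 in Mertk KO, and 13.28, 9.66 and 9.38 in Ptdss1 knockdown. Only Ptdss1 knockdown replicate 1 stood apart for Stat2, and the groups otherwise overlapped.

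Of the 6 sensors, Ddx58 (RIG-I, a sensor of viral RNA ends) was 8.64, 4.65 and 7.54 in control, 8.56, 8.56, 8.14 and 8.86 in Mertk KO, and 11.37, 9.18 and 7.5 in Ptdss1 knockdown. The low control value is that of replicate 2, the control library with the fewest genes detected. Ifih1 (MDA5, a sensor of long double-stranded RNA) was 9.46, 10.74 and 8.93 in control, 8.90, 9.09, 8.84 and 8.65 in Mertk KO, and 8.19, 9.20 and 9.38 in Ptdss1 knockdown. Dhx58 (LGP2, which modulates both) was 9.05, 7.69 and 8.19 in control, 8.68, 8.49, 1.39 and 6.11 in Mertk KO, and 1.45, 8.85 and 8.82 in Ptdss1 knockdown. Its lowest values, in Mertk KO replicate 3 and Ptdss1 knockdown replicate 1, rest on 2 reads each. Ifi204, a DNA sensor of the HIN-200 family, was 12.22, 10.10 and 10.80 in control, 11.48, 11.98, 11.69 and 11.48 in Mertk KO, and 11.34, 11.33 and 11.65 in Ptdss1 knockdown. The perturbed libraries all lay inside the range of the controls. Zbp1 and Ifi205 spanned 10.37 to 11.84 and 8.28 to 11.26 over the 10 libraries, with overlapping groups.

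The 12 genes of the next role act on RNA or on its translation. Ifit1, which binds the ends of viral RNA, was 9.04, 7.63 and 6.08 in control, 7.36, 8.18, 0.86 and 6.59 in Mertk KO, and 11.38, 7.92 and 9.09 in Ptdss1 knockdown. Ifit3, its partner protein, was 9.45, 8.71 and 6.67 in control, 7.19, 7.97, 8.18 and 0.00 in Mertk KO, and 11.86, 8.53 and 8.51 in Ptdss1 knockdown. For both, 1 Mertk KO library was at 1 read or fewer (replicate 3 for Ifit1, replicate 4 for Ifit3) and Ptdss1 knockdown replicate 1 was the highest of the 10. Oas3, a synthase of the 2-5A messenger that activates RNase L, was 8.39, 9.09 and 7.0 in control, 8.0, 6.03, 0.86 and 5.27 in Mertk KO, and 1.45, 8.99 and 7.04 in Ptdss1 knockdown. Oasl1, which in mice restrains the translation of Irf7, was 8.04, 0.00 and 6.95 in control, 6.94, 6.09, 8.05 and 6.63 in Mertk KO, and 9.34, 8.02 and 6.27 in Ptdss1 knockdown. Its 0 is control replicate 2, and without that library the groups overlapped closely. Isg20, an RNA exonuclease, was 7.57, 1.03 and 5.26 in control, 6.45, 6.03, 6.99 and 6.70 in Mertk KO, and 0.00, 8.45 and 6.85 in Ptdss1 knockdown. Slfn5, of the Schlafen family, was 9.62, 3.64 and 8.62 in control, 9.89, 8.89, 8.59 and 9.20 in Mertk KO, and 7.21, 10.15 and 8.28 in Ptdss1 knockdown. Among the controls, replicate 2 was again the low value for Isg20 and Slfn5, while the lowest Isg20 of all was in Ptdss1 knockdown replicate 1. The remaining genes of this role were less scattered for Oas1a (9.80 to 11.94), Oasl2 (9.13 to 11.56), Slfn8 (7.86 to 10.57) and Eif2ak2 (7.33 to 10.67), and more so for Ifit2 (7.06 to 12.75) and Oas2 (4.22 to 11.08).

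Among the GTPase, nucleotide and membrane effectors, Cmpk2, a nucleotide kinase found in mitochondria, was 7.40, 8.28 and 3.75 in control, 4.43, 5.98, 0.86 and 0.00 in Mertk KO, and 10.86, 6.98 and 6.93 in Ptdss1 knockdown. Every Ptdss1 knockdown library was above every Mertk KO library, and control replicate 3 was below 2 of the Mertk KO libraries. Ifi44, an interferon-induced cytoplasmic protein, was 10.50, 9.92 and 8.09 in control, 8.18, 8.77, 9.85 and 7.85 in Mertk KO, and 2.82, 9.27 and 8.79 in Ptdss1 knockdown. Its low value is the 7 reads of Ptdss1 knockdown replicate 1. Rtp4, a chaperone of membrane receptors, was 11.53, 10.75 and 9.19 in control, 9.88, 10.22, 9.03 and 9.12 in Mertk KO, and 10.003, 10.46 and 10.54 in Ptdss1 knockdown. The antiviral GTPase Mx1 spanned 0.85 to 8.84 and Rsad2 (viperin, which makes a chain-terminating nucleotide) 0.00 to 11.18, with 1 read of Mx1 in Mertk KO replicate 4 and in Ptdss1 knockdown replicate 1.

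In the group of ubiquitin-like conjugation, ADP-ribosylation and regulators, Isg15, the ubiquitin-like modifier, was 8.77, 8.82 and 7.97 in control, 8.40, 8.16, 7.71 and 8.18 in Mertk KO, and 10.87, 9.37 and 8.92 in Ptdss1 knockdown. All Ptdss1 knockdown libraries were above all others. Herc6, the main ligase for Isg15 in mice, was 9.42, 10.12 and 8.52 in control, 10.23, 9.84, 9.996 and 10.69 in Mertk KO, and 8.13, 9.0 and 9.73 in Ptdss1 knockdown. Here the order was the opposite, with the Mertk KO libraries above all Ptdss1 knockdown libraries. Parp14, an ADP-ribosyl transferase, was 10.71, 11.11 and 9.53 in control, 11.14, 10.73, 11.18 and 9.75 in Mertk KO, and 13.07, 11.11 and 10.32 in Ptdss1 knockdown. Phf11d, of the Phf11 family, was 10.66, 10.04 and 8.44 in control, 8.54, 9.47, 8.22 and 9.43 in Mertk KO, and 11.42, 10.49 and 9.84 in Ptdss1 knockdown. Usp18, which removes Isg15 and restrains receptor signalling, spanned 1.77 to 11.98, Xaf1 8.89 to 10.36 and Trim30a 10.62 to 12.50.

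**Figure D1:**
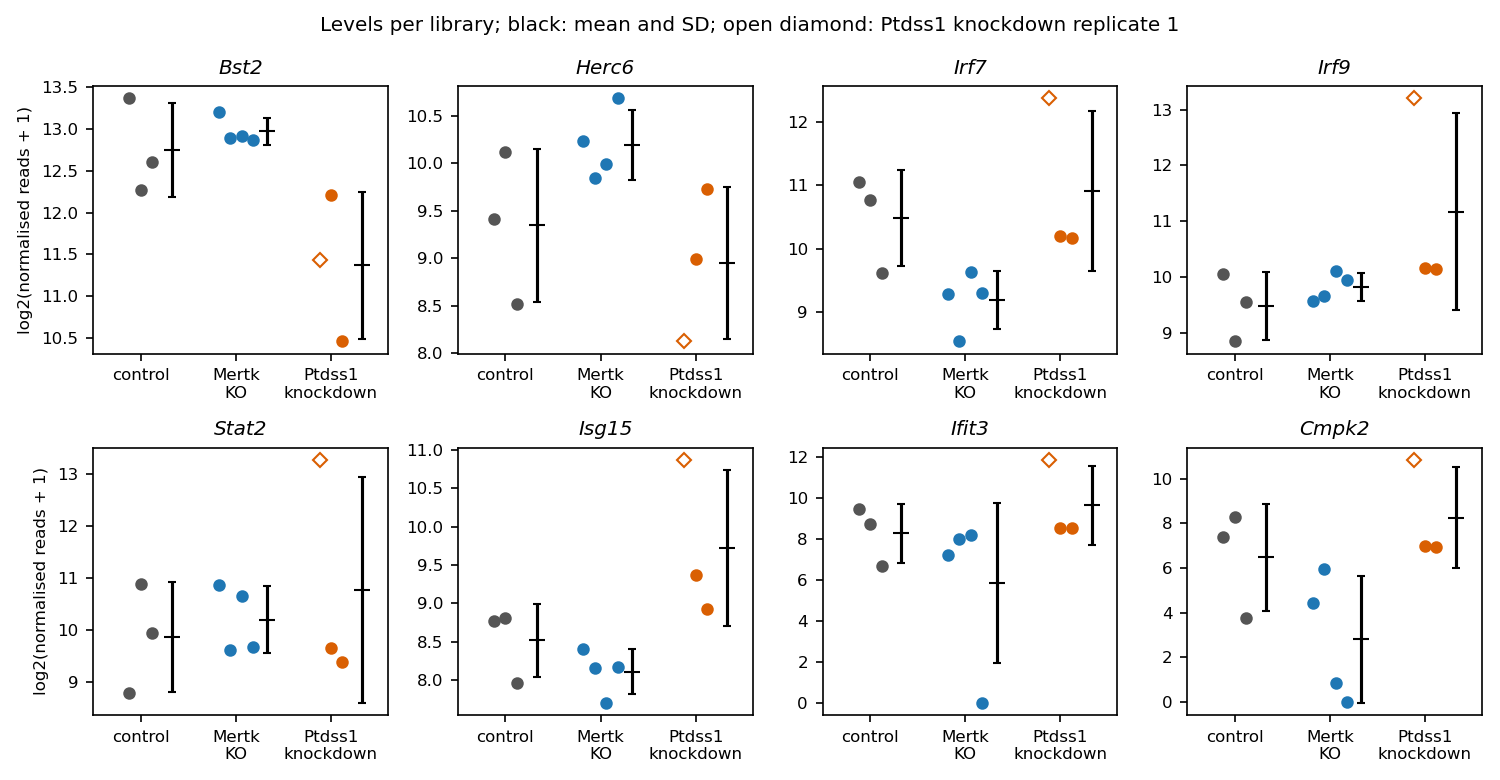
Levels of 8 of the genes in each library, as log2(normalised reads + 1), by group, with the group mean and SD in black and Ptdss1 knockdown replicate 1 as an open diamond; each panel has its own axis, which does not start at 0. Bst2 is lower in the 3 Ptdss1 knockdown libraries (10.46 to 12.21) than in all 7 others, while Isg15 and Irf9 are higher there.

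Genes at very low reads were concentrated in a few libraries. Values under 10 reads were found for 2 genes in control replicate 2 (Oasl1, Isg20), for 4 in Mertk KO replicate 3 (Ifit1, Oas3, Dhx58, Cmpk2), for 5 in Mertk KO replicate 4 (Ifit3, Mx1, Rsad2, Usp18, Cmpk2) and for 5 in Ptdss1 knockdown replicate 1 (Mx1, Oas3, Dhx58, Ifi44, Isg20). Of the 34 genes these were 5.88%, 11.8%, 14.7% and 14.7%. Over all genes tested the shares were 22.4%, 18.2%, 14.2% and 40.1% in the same 4 libraries. These are also the 4 libraries that missed the most of the widely detected genes, at 5.75% to 31.5% against 0.108% to 1.28% in the other 6. Depth as total reads did not single them out, since their totals were 14622749 to 23442827. Ptdss1 knockdown replicate 1 was the highest of the 10 libraries for 19 of the 34 genes and the lowest for 4. Over all genes tested it was the highest for 28.8% and the lowest for 30.6%. In that library Stat2, Irf9, Parp14 and Ifit2 stood at 13.28, 13.21, 13.07 and 12.75, each the highest of its 10 values, whereas Isg20 was at 0 reads.

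**Figure D2:**
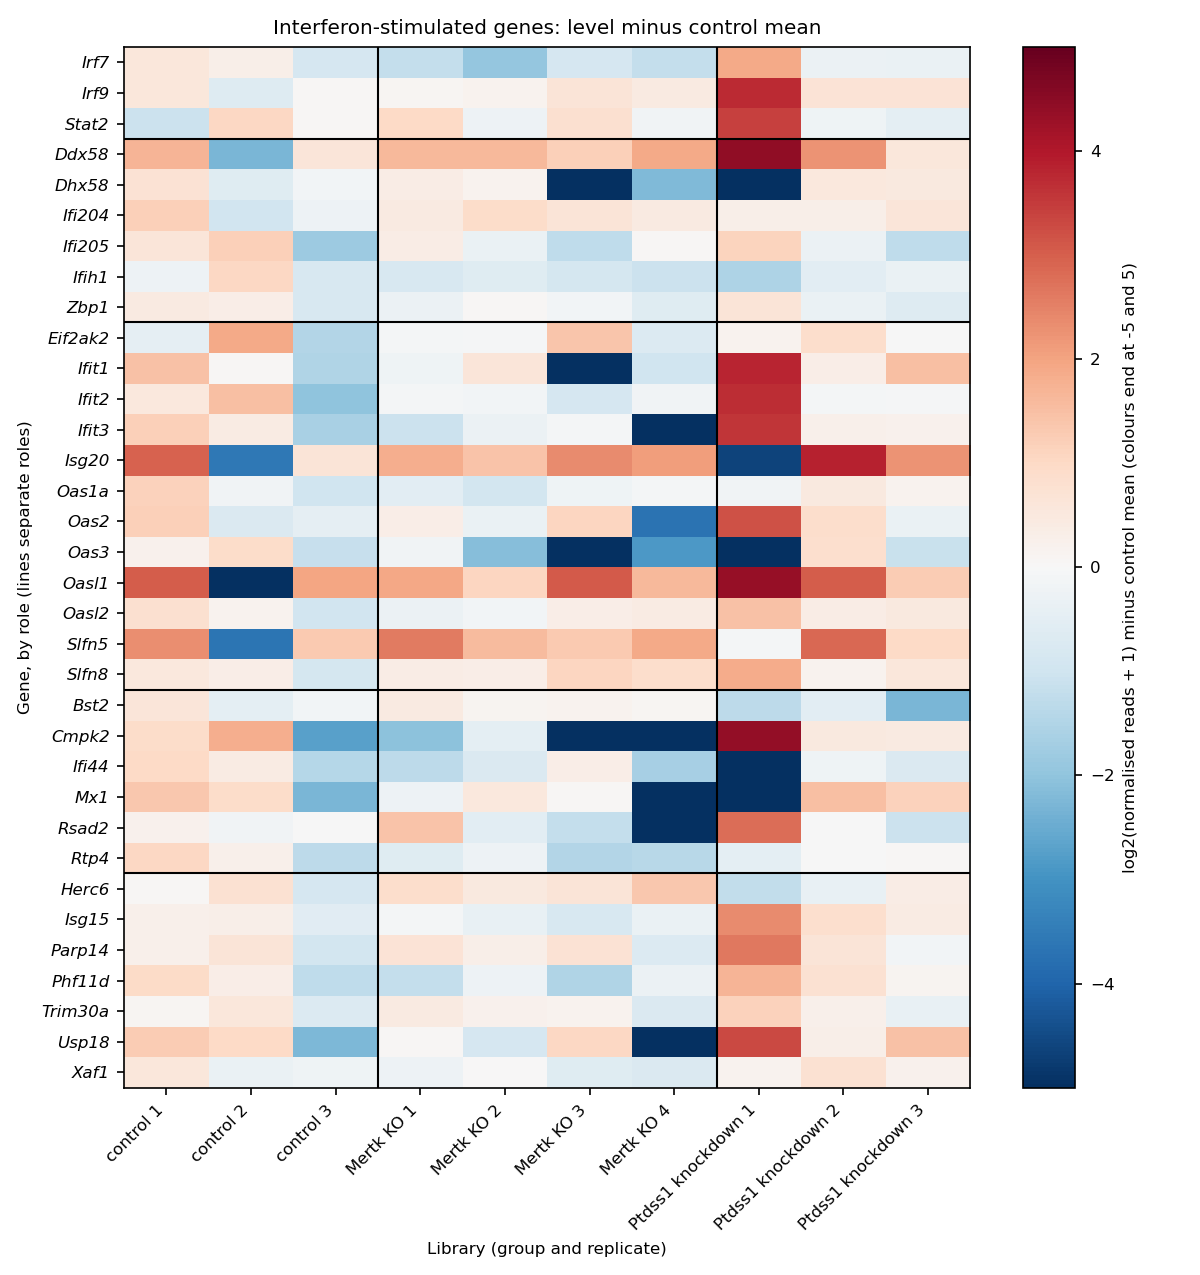
Each of the 34 genes (rows, by role) in each library (columns), as its log2(normalised reads + 1) level minus the mean of the 3 control libraries, with colours ending at -5 and 5. Ptdss1 knockdown replicate 1 holds both dark red values (Ddx58, Cmpk2 and Oasl1 the darkest) and dark blue ones (Dhx58, Oas3, Ifi44, Mx1), and Bst2 is blue in all 3 Ptdss1 knockdown libraries.

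The spread within groups differed by gene. The median SD over the 34 genes was 1.07 in control, 0.57 in Mertk KO and 1.45 in Ptdss1 knockdown, beside 0.94, 0.81 and 1.75 over all genes tested. Bst2 had the smallest SD of the 34 in Mertk KO (0.16, n = 4) and Rsad2 the largest (4.30). The control libraries were themselves apart. Of the 33 genes other than Bst2, 30 were above the control mean in control replicate 1 and 27 were below it in control replicate 3.

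Loss of MerTK from the macrophages was addressed by Mertk KO against control. Irf7 had a log2 fold change of -1.29, with 3 of 4 Mertk KO libraries below every control. Cmpk2, Oas3 and Ifit3 had larger but far more scattered differences, and Bst2 was at 0.22 (SE 0.45), or -0.017 without control replicate 2. Over the 34 genes the median fold change was -0.35, with 14 positive and 20 negative, beside a median of 0.02 and 50.9% positive over all genes tested. None of the 34 passed an adjusted p of 0.05 (limma, Benjamini-Hochberg over 11564 genes), where 2 of all genes (0.0173%) did. At an unadjusted p of 0.05 there was 1 of the 34, Irf7, beside 2.06% of all genes. By direction these were 0 higher, beside 1.14%, and 1 lower, beside 0.917%. With limma-voom the counts were 0 called and 0 at the unadjusted p, beside 2.25% of all genes. No gene had groups that did not overlap, higher or lower, beside 3.00% and 2.62% of all genes. Without control replicate 2 (and Ptdss1 knockdown replicate 1) Herc6 was the 1 gene higher in every Mertk KO library, beside 6.63%, and 0 were lower, beside 6.73%.

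The Irf7 log2 fold change was -1.29 (SE 0.60, unadjusted p = 0.045, adjusted p = 1.0 by limma). It ranged from -1.72 to -1.0 when each library was left out. The other negative values of smallest p were Cmpk2 at -3.66 (SE 1.93), Oas3 at -3.12 (SE 1.97), Ifit3 at -2.44 (SE 1.70) and Rtp4 at -0.93 (SE 0.57). The first 3 of these rest on Mertk KO libraries at 0 or 1 read, and without Mertk KO replicate 4 the Ifit3 value was -0.50. The positive values of smallest p were Slfn5 at 1.85 (SE 1.21), Ddx58 at 1.59 (SE 1.10), Herc6 at 0.84 (SE 0.59), Ifi204 at 0.61 (SE 0.48) and Oasl1 at 1.93 (SE 1.78). For Slfn5, Ddx58 and Oasl1 the low control replicate 2 sets the size, and without it they were 0.023, 0.44 and -0.57. By role, the 6 GTPase, nucleotide and membrane effectors had a median of -1.24 with 5 negative, or -0.34 with 4 negative without Mertk KO replicate 4, where Cmpk2 and Rsad2 had 0 reads. The 12 RNA-acting effectors had a median of -0.12 with 6 negative, or 0.16 without that library. The median over the 34 genes came to -0.066 when Mertk KO replicate 4 was left out, to -0.074 when control replicate 1 was, and to -0.78 when control replicate 3 was.

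Knockdown of Ptdss1 in the tumour cells was addressed by Ptdss1 knockdown against control. Irf9 and Isg15 were above control in every library of the group, and Bst2 was below it. Most other genes were on the positive side, by amounts that depend on replicate 1. Over the 34 genes the median fold change was 0.52, with 24 positive and 10 negative, beside a median of -0.05 and 48.0% positive over all genes. Without replicate 1 it was 0.35 with 23 positive, beside 0.12 and 56.5% over all genes. None of the 34 and none of the 11564 genes (0.00%) passed an adjusted p of 0.05. At an unadjusted p of 0.05 there were 2 of the 34, Bst2 and Irf9, beside 2.90% of all genes, and limma-voom also gave 2, beside 2.46%. Irf9 was the 1 higher, beside 1.60%, and Bst2 the 1 lower, beside 1.3%. Isg15 and Irf9 were higher in every knockdown library than in every control library, where 3.32% of all genes were, and Bst2 was lower in every one, where 3.60% of all genes were. Without replicate 1 the same 3 genes remained, beside 9.11% and 6.10% of all genes. With control replicate 2 also left out, Isg15, Irf9 and Eif2ak2 were higher, beside 16.3%, and Bst2 lower, beside 14.2%.

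The Bst2 log2 fold change was -1.38 (SE 0.48, unadjusted p = 0.0099, adjusted p = 0.841 by limma) and -1.41 without replicate 1. Bst2 was singled out from earlier results of these data, so its p does not stand as independent support. Irf9 was at 1.69 (SE 0.70, unadjusted p = 0.026) and at 0.67 without replicate 1. Isg15 was at 1.20 (SE 0.81) and at 0.63 without it. Further positive values of smallest p were Ddx58 at 2.41 (SE 1.17, 1.40 without replicate 1), Parp14 at 1.05 (SE 0.66, 0.26 without it) and Oasl1 at 2.88 (SE 1.90, 2.15 without it). The other negative values of smallest p were Ifi44 at -2.54 (SE 1.37), Ifih1 at -0.79 (SE 0.70), Oas3 at -2.33 (SE 2.11) and Dhx58 at -1.94 (SE 2.11). Without replicate 1 these became -0.47, -0.42, -0.14 and 0.52, the last with its sign turned. By role, 11 of the 12 RNA-acting effectors, 6 of the 7 regulators and all 3 transcription factors had positive values, with medians of 1.02, 0.87 and 0.91. Without replicate 1 these medians were 0.40, 0.45 and -0.30, and only Irf9 of the 3 transcription factors was positive, at 0.67. Over the 34 genes, 9 changed sign when replicate 1 was left out, Irf7 and Stat2 among them. The GTPase, nucleotide and membrane effectors, with Bst2 among them, had 2 of 6 positive and a median of -0.72, which was -0.23 with 3 of 6 positive without replicate 1.

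Bst2 beside the other genes, library by library, showed the following. In the Ptdss1 knockdown libraries Bst2 was 11.44, 12.21 and 10.46, compared with 13.37, 12.27 and 12.60 for control. Mertk KO stood at 13.20, 12.90, 12.91 and 12.86. All 3 knockdown values were below all 7 others, though replicate 2 was only just below control replicate 2. Set against the control mean, Bst2 was at -1.31, -0.54 and -2.28 in the knockdown libraries, whereas the median of the other 33 genes was at 1.47, 0.38 and 0.20. Of those 33 genes, 23, 23 and 20 were above the control mean. Control replicate 2 showed the same opposition at nearly the size of knockdown replicate 2, with Bst2 at -0.48 and the others at 0.33, 22 of 33 above. In control replicates 1 and 3 Bst2 was at 0.62 and -0.14 and the others at 0.74 and -0.86, in the same direction. In the Mertk KO libraries Bst2 was at 0.46, 0.15, 0.16 and 0.12 and the median of the others at -0.10, -0.12, 0.06 and -0.67. The signs were thus opposed in Mertk KO replicates 1, 2 and 4 as well, with Bst2 the higher. As group means, Bst2 differed from the median of the other 33 genes by -1.93 in Ptdss1 knockdown against control, and by -1.79 without replicate 1. Bst2 lies at chr8:71534255-71537456 on the minus strand (ENSMUSG00000046718, GRCm38), and no other annotated gene overlaps its exons.

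**Figure D3:**
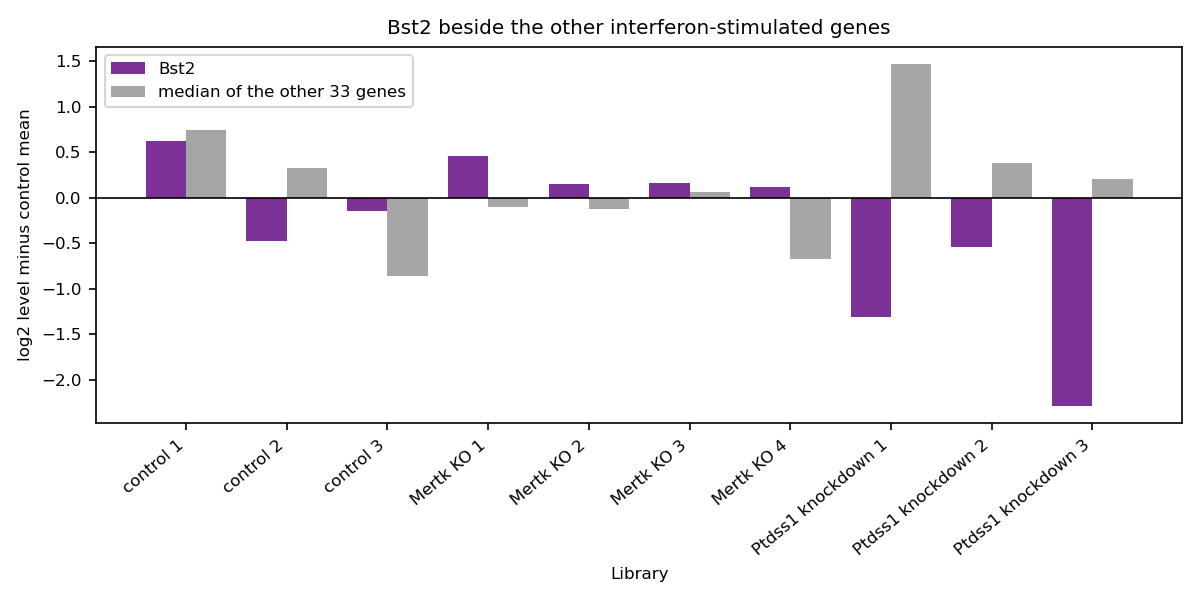
For each library, the log2 level of Bst2 minus its control mean (purple) and the median of the same difference over the other 33 genes (grey). In the 3 Ptdss1 knockdown libraries the bars point in opposite directions, Bst2 down to -2.28 and the other genes up to 1.47. In control replicate 2 they do so too, at -0.48 and 0.33. In Mertk KO replicates 1, 2 and 4 the bars are opposed the other way, with Bst2 at 0.46, 0.15 and 0.12. The other genes are at -0.10, -0.12 and -0.67 there.

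In sorted bulk libraries, fewer cells of a type and less RNA per cell cannot be told apart. Plasmacytoid dendritic cells, which carry much Bst2 and make type I interferon, had markers that overlapped between groups in all 3 comparisons. The 9 markers summed to 1778 to 3334 normalised reads in control, 870 to 2355 in Mertk KO and 1624 to 3076 in Ptdss1 knockdown. Most of these were Tcf4, Il3ra and Runx2. Of the defining markers, Klk1 had 0 reads in all libraries, Siglech 4 reads in 1 library and Spib 1 read in 1 library. Ly6d had 32 and 7 reads in 2 knockdown libraries and 0 in all others. Ccr9 had 182 and 127 reads in 2 control libraries, 0, 0 and 28 in Ptdss1 knockdown, and 0 to 37 in Mertk KO. Cox6a2 had 1 read in knockdown replicate 1 and 36 to 155 elsewhere. The 7 conventional dendritic cell markers were higher in Ptdss1 knockdown (674 to 1922) than in control (196 to 592) without overlap. Mertk KO ran from 0 to 8281 and overlapped both, with 9573 reads of Cd209a in Mertk KO replicate 3. Of the 5 tested, 4 were positive in Ptdss1 knockdown against control, and Clec9a was at -2.16 (SE 2.07). Most of the reads in knockdown replicate 1 were Dpp4, and Flt3, Zbtb46 and Xcr1 had 0 reads there. The part of these markers in the Bst2, Irf9 and Isg15 differences was not tested. The 7 NK cell markers were lower in Mertk KO (226 to 795) than in control (1661 to 3380) and than in Ptdss1 knockdown (969 to 2167), and Ncr1 had 0 reads in 9 libraries. The 9 tumour or mammary epithelial markers were higher in Mertk KO (1021 to 2724) than in control (325 to 587) and Ptdss1 knockdown (4.34 to 972), with Epcam at 0 reads in all control and Mertk KO libraries. Their part in the results that involve Mertk KO was not tested. The neutrophil, T cell, B cell, fibroblast and endothelial lists overlapped between groups in all 3 comparisons.

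Mertk KO against Ptdss1 knockdown sets the 2 perturbed groups side by side. Irf7, Cmpk2, Ifit3, Isg15, Irf9 and Phf11d were lower in every Mertk KO library than in every Ptdss1 knockdown library, and Bst2 and Herc6 were higher. Over the 34 genes the median fold change was -0.73, with 6 positive and 28 negative, beside a median of 0.11 and 54.0% positive over all genes. Without Ptdss1 knockdown replicate 1 it was -0.40 with 9 positive, beside -0.11 and 43.4% over all genes. With upper-quartile scaling the split was 11 positive and 23 negative. None of the 34 and none of the 11564 genes (0.00%) passed an adjusted p of 0.05. At an unadjusted p of 0.05 there were 8 of the 34 beside 3.73% of all genes, and 7 with limma-voom, beside 3.56%. Of the 8, Bst2 was the 1 higher in Mertk KO, beside 2.18%, and 7 were lower, beside 1.55%. Without Ptdss1 knockdown replicate 1 there was 1 of the 34, beside 242 of 11540 genes (2.1%).

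Groups did not overlap for 10 of the 34 genes. Higher in Mertk KO were Bst2 and Herc6, 2 of 34 beside 2.91% of all genes. Lower were Isg15, Ifit2, Ifit3, Irf7, Irf9, Cmpk2, Xaf1 and Phf11d, 8 of 34 (23.5%) beside 2.32% of all genes. Without Ptdss1 knockdown replicate 1 the same 2 were higher, beside 5.92%, and 13 were lower, beside 6.77%. The 5 added were Mx1, Oas1a, Ifih1, Dhx58 and Rtp4. The counts of groups that do not overlap compare no value of a control library, whereas the p-values use a spread estimated over all 10 libraries. Genes measured in the same libraries are not independent of each other.

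The Bst2 log2 fold change was 1.60 (SE 0.45, unadjusted p = 0.0021, adjusted p = 0.805 by limma) and 1.63 without Ptdss1 knockdown replicate 1. When libraries were weighted by their fit in limma, Bst2 alone of the 34 passed, at 2.06 with an adjusted p of 0.0026, where 35 of all genes (0.303%) did. Here too Bst2 was singled out from earlier results of these data, so none of its p-values stands as independent support. Over the leave-one-out fits its adjusted p ran from 0.392 to 1.0. Irf7 was at -1.72 (SE 0.60, unadjusted p = 0.010) and at -0.99 without that library. Cmpk2 was at -5.44 (SE 1.93, unadjusted p = 0.011; -4.14 without it) and Phf11d at -1.66 (SE 0.64, unadjusted p = 0.018; -1.25 without it). Ifit1 at -3.72 (SE 1.63) and Ifit3 at -3.80 (SE 1.70) became -2.76 and -2.68. Isg15 at -1.61 (SE 0.76) and Usp18 at -3.34 (SE 1.56) were the other values with an unadjusted p under 0.05. The positive values of smallest p after Bst2 were Herc6 at 1.24 (SE 0.59, 0.83 without that library), Ifi44 at 1.70 (SE 1.28), Isg20 at 1.44 (SE 2.07) and Slfn5 at 0.60 (SE 1.21), and Ifi204 was at 0.22. Ifi44, Isg20 and Slfn5 turned to -0.37, -1.11 and -0.072 without Ptdss1 knockdown replicate 1, where Ifi44 and Isg20 had 7 and 0 reads. In all, 9 of the 34 genes changed sign without that library. Stat2 (to 0.68), Ifi205 (to 0.49), Slfn8, Zbp1, Ddx58 and Trim30a turned from negative to positive.

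**Figure D4:**
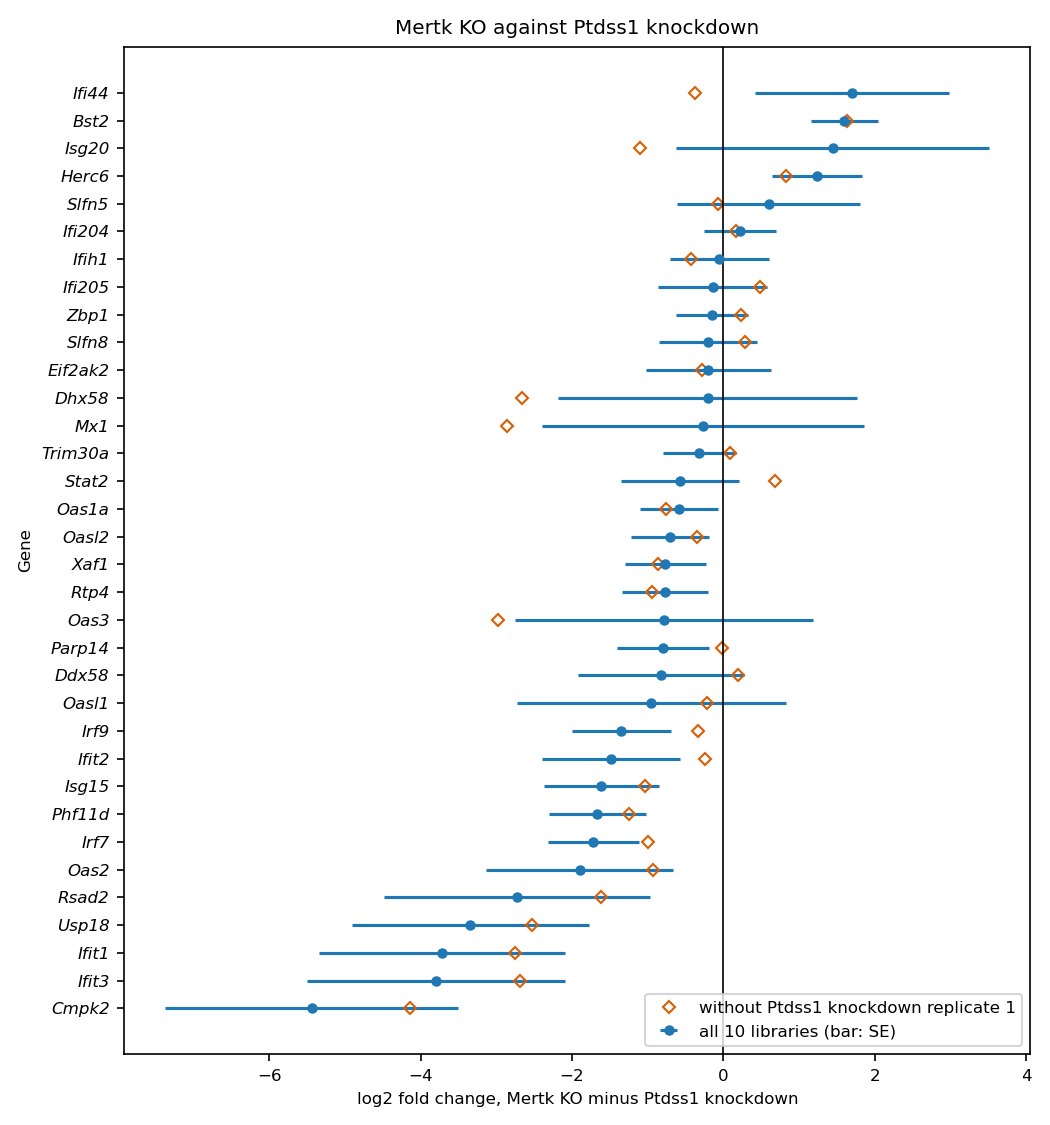
Log2 fold change of each of the 34 genes, Mertk KO minus Ptdss1 knockdown, from the fit over all 10 libraries (filled, bar: SE) and without Ptdss1 knockdown replicate 1 (open diamond). Of the 34 values 28 are negative, Bst2 keeps its value of about 1.60 without that library, and 9 genes change sign, Stat2, Ifi44 and Isg20 among them.

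The genes that encode the ligands were close to silent. Of 18 type I interferon genes, 14 had 0 reads in all 10 libraries and 0 passed the filter. Ifnb1, the gene for interferon beta, had 18 reads in Ptdss1 knockdown replicate 3 and 0 in the other 9. Ifng, which acts through a receptor of its own, had 34 and 20 reads in Mertk KO replicates 1 and 2, 10 in Ptdss1 knockdown replicate 2 and 0 elsewhere. A count of 0 allows up to 3 reads in a library, for counting error only, so a low level of ligand mRNA was not detectable at these depths.

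The receptors were expressed and did not separate the groups. Ifnar1 was 9.74, 11.08 and 10.77 in control, 9.96, 10.19, 9.75 and 10.49 in Mertk KO, and 13.34, 10.07 and 9.94 in Ptdss1 knockdown, with replicate 1 again the high value. Ifnar2 was much more even, from 11.84 to 12.50 over the 10 libraries. Of the 10 receptor and Jak-Stat genes, Irf9 and Stat2 among them, 5 were positive in Mertk KO against control, beside 50.9% of all genes. In Ptdss1 knockdown against control 8 were positive, beside 48.0%, and 0 were called in any comparison. Among the 10 were the phosphatases Ptpn11 (1.56, SE 0.94, in Mertk KO against control and 1.40, SE 1.01, in Ptdss1 knockdown against control, with 30 reads in control replicate 2) and Ptpn6 (1.09, SE 0.64, in Ptdss1 knockdown against control, or 0.35 without replicate 1) and the kinase Jak1 (0.62, SE 0.46, in Mertk KO against control). In Ptdss1 knockdown against control without replicate 1, Ifnar1, Jak1 and Stat2 turned to -0.52, -0.15 and -0.35. Irf9 and Ptpn11 stayed positive there, at 0.67 and 0.99.

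The 14 tested genes of interferon induction gave medians of 0.19 in Mertk KO and 0.26 in Ptdss1 knockdown against control, with 0 called. Over all genes tested these medians were 0.02 and -0.05. Trim25, the ubiquitin ligase that activates RIG-I, was at -1.22 (SE 0.53, unadjusted p = 0.034) in Mertk KO against control. Myd88, the adaptor of most Toll-like receptors, was at 0.92 (SE 0.66) in Mertk KO and 1.33 (SE 0.71, or 0.87 without replicate 1) in Ptdss1 knockdown against control, and Tlr7, a receptor for single-stranded RNA, at -2.34 (SE 1.55) in the latter, or -0.61 without replicate 1. The 8 tested negative regulators gave medians of -0.17 and -0.30, with 0 called. Of these the signalling inhibitors Socs3 and Socs1 were at 0.99 (SE 0.56) and 0.86 (SE 0.72) in Mertk KO against control. In Ptdss1 knockdown against control Socs3 was at 1.07 (SE 0.60), or 0.14 without replicate 1, and the RNA editor Adar at -2.20 (SE 1.64), or 0.44 without it. For interferon gamma signalling, Ifngr1 was at -0.40 (SE 0.45) in Mertk KO against control, and Ifngr2 and Jak2 at 0.86 (SE 0.52) and 0.88 (SE 0.80) in Ptdss1 knockdown against control, or 0.26 and -0.23 without replicate 1.

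A wider list of 66 tested interferon-stimulated genes other than the 34 likewise had 0 called. Its median was 0.07 in Mertk KO against control (37 positive), 0.31 in Ptdss1 knockdown against control (44 positive) and -0.19 between the perturbed groups (24 positive). Over all genes tested the medians were 0.02, -0.05 and 0.11, with 50.9%, 48.0% and 54.0% positive. How far the list medians depend on Ptdss1 knockdown replicate 1 was not tested. Those of smallest p were Ifitm1 (1.77, SE 0.64, unadjusted p = 0.013) and Gbp2 (1.08, SE 0.43, unadjusted p = 0.023) in Mertk KO against control. Gbp2, a guanylate-binding protein, had control levels of 12.68, 11.89 and 12.26. Its Mertk KO levels were 13.45, 13.34, 13.55 and 13.07, every library above every control, where 3.00% of all genes were. In Ptdss1 knockdown against control they were Sp100, a nuclear body protein, at 1.5 (SE 0.59, 0.89 without replicate 1) and Slfn1 at 3.17 (SE 1.38), the latter with 4 reads in control replicate 2.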

How the data were processed

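Per the labels, mRNA of sorted macrophages was amplified by PCR as cDNA and sequenced without strand or molecular identifiers. The submitters' processing notes name STAR, RSEM and mm10, and no versions. The authors deposited 1 table per library, with no unit stated. Its values were read as log2(reads / size factor + 1), a scale other than counts, with a decimal comma. Undoing the log recovered whole reads for 100% of the values within a tolerance of 0.01 read, and all 21938 gene IDs matched GENCODE M21. RPKM was computed from these reads and exonic length.

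Genes with at least 10 reads in at least 3 libraries were tested with limma 3.58.1 (R 4.3.3) on the deposited log2 values, with trend and robust moderation, 1 fit over 10 libraries and no covariate. Tests were two-sided, with Benjamini-Hochberg adjustment over 11564 genes at 0.05. The script was tested on simulated data. These had the same setting of spread for all genes and no library that missed genes, so they check the code and not the power here. Depth ran from 10292592 to 25815071 reads, and precision is limited by 3 or 4 libraries a group.

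The genes and lists were chosen with earlier results of these data known. Fold changes were named for Bst2 and up to 5 genes of smallest p in each direction, and levels also for Irf7, Irf9 and Stat2. From each pathway list up to 2 genes of smallest p were named, besides the receptors, Ifnb1 and Ifng. One gene that this rule names is not reported here. Usp18 and the genes counted as not overlapping were named after their values were seen. Promoter windows came from RefSeq (GRCm38.p6) and were searched for exact letters.

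Alternatives were scaling by median-of-ratios factors or by upper quartiles, a filter of 50 reads or none, a pseudocount of 8, limma-voom on recovered reads, no robust moderation, only the groups compared, library weights, detected genes as a covariate, and libraries left out. Counts of groups that do not overlap without 1 or 2 libraries were added after seeing the data.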

Additional observations from a re-analysis of the deposited data

Results flagged for a closer look

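Among the 4 Mertk KO libraries, 1 library stood far from the other 3 for 4 of the 34 genes, by Dixon's criterion. Chance alone gives about 1 such value in 20 groups if values are normally spread, which values at 0 or 1 read are not. The share over all genes was not counted, so the 4 are not read as a trait of these genes. Ifit2 was low in Mertk KO replicate 3, at 8.24 on the log2 scale with 373 reads, and the gap to the nearest library took 0.875 of the range. Ifit3 was at 0 in Mertk KO replicate 4, with 0 reads. Mx1 was at 0.85 in the same library, with 1 read. Bst2 was high in Mertk KO replicate 1, at 13.20 with 6434 reads, although its SD in this group, 0.16, was the smallest of the 34 genes. Mertk KO replicates 3 and 4 are also the libraries of the group that missed the most of the widely detected genes, 8.60% and 5.75%, and the part of this in the Ifit2, Ifit3 and Mx1 values was not tested.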

How the results depend on the processing

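No paired analysis was possible because the labels give no replicate numbers shared between groups. Of 341 alternative values for named genes, 325 kept their sign and their side of the threshold, 15 changed sign and 1 passed the threshold. That 1 was Bst2 in Mertk KO against Ptdss1 knockdown under library weights, which made the count of called interferon genes there 1 instead of 0. The count was 0 under all other alternatives. Much of this agreement was fixed in advance. Both changes of filter, no robust moderation and only the groups compared use the same group means, so no sign could change there. The smallest adjusted p of the 34 genes in the fit over 10 libraries was 0.805 (limma), far from the threshold. In Mertk KO against control, Bst2 turned to -0.023 under library weights and to -0.017 without both Ptdss1 knockdown replicate 1 and control replicate 2, and Oasl1 to -0.51 and -0.57. In Ptdss1 knockdown against control, the same pair of settings gave Dhx58 0.081 and 0.21 and Oasl1 -0.29 and -0.35, and leaving out both libraries gave Ifih1 0.10 and Oas3 0.32. In Mertk KO against Ptdss1 knockdown, they gave Ifi44 -0.29 and -0.37 and Isg20 -0.90 and -1.11, and leaving out both gave Slfn5 -0.072. The cause was not tested. With 1 library left out at a time, Bst2 in Mertk KO against control ran from -0.017 to 0.53 and Oasl1 from -0.57 to 3.45. Dhx58 in Ptdss1 knockdown against control ran from -3.18 to 0.52. Between the perturbed groups Ifi44 ran from -0.37 to 2.86, Isg20 from -1.11 to 3.12 and Slfn5 from -0.072 to 1.40. The median over the 34 genes kept its sign, from -0.78 to -0.066, 0.27 to 0.86 and -0.82 to -0.40 in the 3 comparisons in order. Under library weights the medians were -0.35, 0.09 and -0.34, beside 0.03, 0.05 and -0.03 over all genes. In Ptdss1 knockdown against control, 19 of the 34 were then positive, beside 53.5% of all genes, so the interferon genes were close to all genes there. Upper-quartile scaling moved the median of all genes to -0.24 in Ptdss1 knockdown against control and to 0.30 between the perturbed groups, where the interferon medians were 0.40 and -0.51. The promoter element was in 30.8% of the genes with a window when searched on 1 strand only (1.96% of all genes) and in 30.8% with 1 base in place of 2 between both GAAA (3.70%). Low reads limit Cmpk2, Oas3, Isg20, Mx1 and Dhx58 most.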
